A study of Mus musculus with 22 samples.

Results

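The 10 genes described here serve copper entry, copper export and metal storage: the STEAP family genes Steap1 and Steap2, the copper transporters Slc31a1 and Slc31a2, the copper-exporting pumps Atp7a and Atp7b, the copper-binding plasma protein Cp and the metallothioneins Mt1, Mt2 and Mt3. They are 10 of 33964 genes with counts in the adult mouse choroid plexus (ChP), the epithelial tissue of the brain ventricles that makes cerebrospinal fluid. The genes were put together by name and known function and were in part selected on measured values, since the log2 fold changes of the Cre-Tat comparisons were known when the set was formed. The study itself named Steap1 and Slc31a1 for their change in those pools, so for these 2 genes the Cre-Tat comparisons are given as values with no test.

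Gene expression was measured by RNA sequencing in 14 pools of ChP tissue, 2 pools (A and B) in each of 7 groups. In the conditional model, Otx2 lox/lox mice of strain S129, 3 months old, received an injection of Cre-Tat protein or of vehicle into the lateral ventricles, and the ChP of the lateral ventricles (LV) and of the fourth ventricle (4V) was collected separately at day 15, each Cre-Tat pool from 5 mice and each vehicle pool from 4 mice. The methods state that Cre-Tat tissue was checked by quantitative PCR for lower Otx2 before pooling. As they read, LV and 4V tissue came from the same mice, so the pools of LV and 4V are not independent. Which LV and 4V pools share mice is not stated. Every mouse of that model carried the floxed alleles, controls included. In the constitutive model, on strain B6D2, 4V ChP came from wildtype mice, from Otx2 (+/-) mice, which the methods call Otx2 +/GFP, and from mice labelled Otx2 (+/AA), an allele that the sources used here do not describe further. The wildtype and Otx2 (+/-) mice were 3 months old, and all constitutive groups carry their genotype throughout the body and from conception. The methods leave unclear whether the 2 samples of a constitutive group, here called pools, came from separate sets of mice. Where they did not, the spread between them is not a spread between animals. Model, strain, sequencing run and, as the counts below show, the sexes pooled coincide and cannot be told apart, and p-values measure the spread between pools. In bulk tissue, fewer cells of a type and less RNA per cell cannot be told apart either.

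Copper enters cells as the reduced ion through SLC31A1, after STEAP family proteins and other reductases have reduced it at the membrane. Inside the cell, small chaperones hand it to copper enzymes and to the pumps ATP7A and ATP7B, which load it into secreted proteins and move it out of the cell. Metallothioneins are small cysteine-rich proteins that bind zinc and copper, and Mt1 and Mt2 are widely induced by metals, glucocorticoids and inflammation, whereas Mt3 is best known from brain. The ChP stands between blood and cerebrospinal fluid, and is a known site of copper uptake, of ceruloplasmin synthesis and of high Atp7a expression.

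The total per pool ran from 22750019 to 50088408 counts over all transcripts. Otx2, the targeted gene, could be counted only over its whole transcript. In the conditional model this takes in reads outside the floxed exon and therefore does not check the deletion. Counted so, Otx2 was higher in the groups labelled as its knockdown. The log2 fold change was 1.41 (SE 0.18) in LV and 1.64 (SE 0.15) in 4V of the pools labelled Cre-Tat. It was 1.53 (SE 0.14) in Otx2 (+/-) and 0.06 (SE 0.13) in Otx2 (+/AA), each against wildtype. The floxed exon does not apply to Otx2 (+/-), and why the count was higher was tested in neither model. Directions given below are between pools as labelled. The conditional pools had reads of both Xist and the Y-linked genes Ddx3y, Uty, Kdm5d and Eif2s3y, whereas the constitutive pools had at most 1 count of any of the 4 Y-linked genes. Ddx3y was at 93.5 to 127 CPM in the vehicle pools, at 100.5 and 67.1 CPM in Cre-Tat pools A of LV and 4V and at 25.5 and 13.3 CPM in Cre-Tat pools B, so the mix of sexes also differed within the conditional model. Without Cre-Tat pool B, the log2 fold change in LV was 1.08 for Mt1, 1.67 for Mt2 and -1.02 for Steap2. It was 0.74 for Cp and -0.38 for Atp7a. In 4V these values were 1.74, 2.28, -1.29, 1.28 and -0.55. Such a fit leaves 1 Cre-Tat pool, and Cre-Tat 4V pool A was itself below the vehicle pools in Ddx3y. The part of sex in these values was not tested. The conditional libraries were joined to pools by library number, because 14 of 16 of their files carried a number of another pool than the sample they were attached to. Under this joining, Emx2, a forebrain gene, and Hoxb2, a hindbrain gene, were on the side of the labelled ventricle in all 8 conditional pools. Normalised read counts are given as CPM, counts brought to a common library total with scaling by the trimmed mean of M-values over the 14 pools. Each fold change is between 2 pools and 2 pools, with p-values from edgeR's quasi-likelihood test adjusted over all genes tested and a threshold of 0.05.

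In LV, Mt1 and Mt2 rose and Steap2 fell in the pools labelled Cre-Tat, and Steap1 and Slc31a1 were lower. In 4V, Mt1, Mt2 and Cp rose and Steap2 and Atp7a fell, and Steap1 and Slc31a1 were again lower. The Cre-Tat and vehicle pools of Mt3 overlapped in both ventricles. Here and below, a lack of overlap describes the pools and is no test. With 2 against 2 pools, an exact permutation test cannot go below p = 0.333, so unchanged genes often separate too. How many of the other genes separate in this way is not given here. Of the 8 genes that were tested, 3 passed the threshold in LV (Mt1, Mt2 and Steap2), beside 3.24% of the 14990 genes tested (2.21% higher and 1.03% lower). Without Cre-Tat LV pool B, 5 of the 8 passed, Cp and Slc31a2 in addition. In 4V, 5 of the 8 passed (Mt1, Mt2, Cp, Steap2 and Atp7a), beside 10.7% of 14537 genes (5.70% higher and 4.99% lower). Since the genes were assembled with these comparisons known, nothing is read from the difference between those shares. For the same reason, each adjusted p places a gene among all genes tested and is no independent test of the set. The median log2 fold change of the 10 genes was -0.51 in LV and -0.25 in 4V, beside medians over all genes of 0.0044 and 0.0060.

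**Figure D1:**
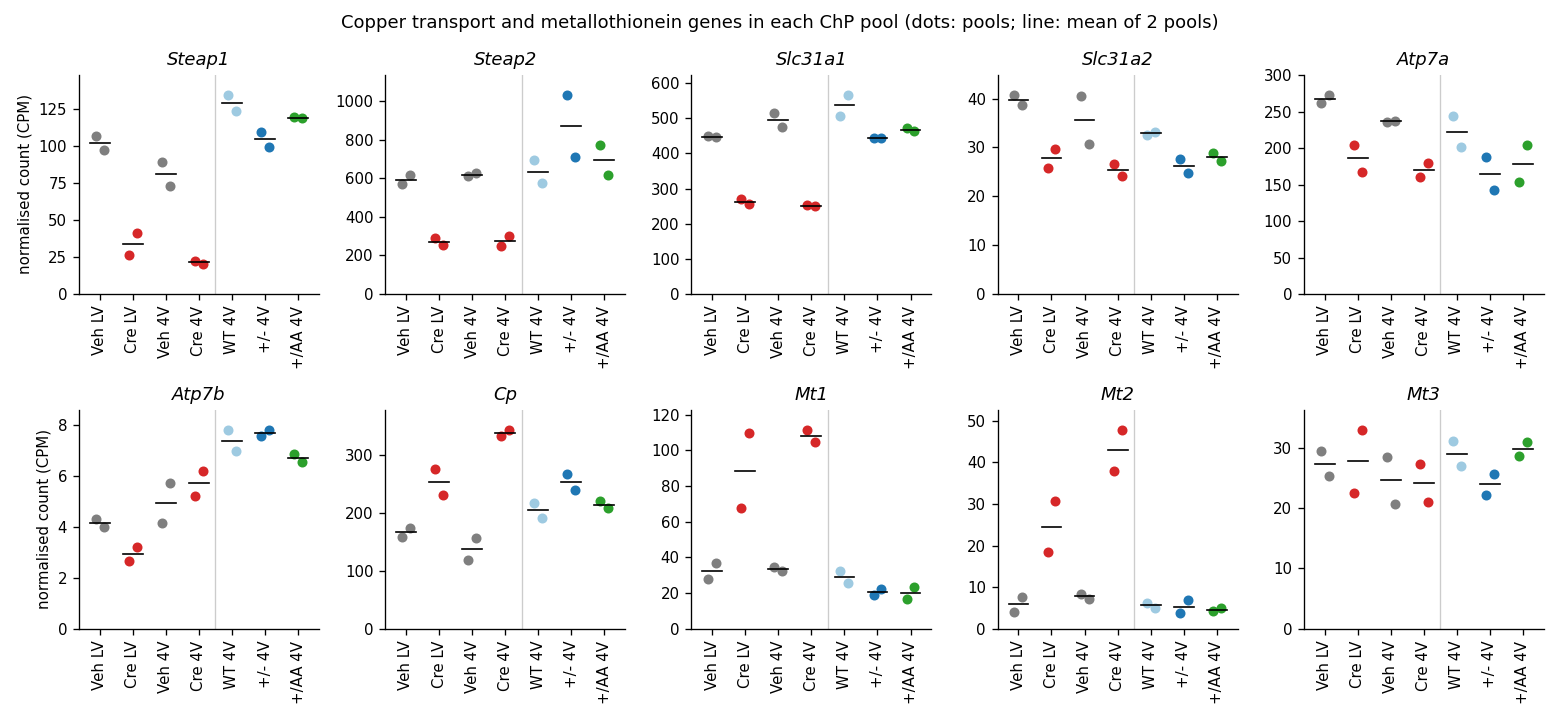
Normalised read count in CPM (vertical axis, each panel from 0) of the 10 genes in each pool, by group (horizontal axis), with dots for pools and a line for the mean of the 2 pools. The Cre-Tat pools (red) lie below the vehicle pools (grey) in both ventricles for Steap1, Steap2, Slc31a1, Slc31a2 and Atp7a and above them for Cp, Mt1 and Mt2, and the 3 constitutive groups lie to the right of the vertical line.

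Steap1 encodes a member of the STEAP family that carries a haem group (GRCm38 chr5:5736317-5749326, minus strand). Its level was 107 and 97.1 CPM in the vehicle LV pools A and B and 26.6 and 41.4 CPM in the Cre-Tat LV pools. In 4V it was 89.0 and 73.3 CPM with vehicle and 22.6 and 20.2 CPM with Cre-Tat. All 4 Cre-Tat pools were below all 4 vehicle pools. The log2 fold change was -1.58 (SE 0.20) in LV and -1.92 (SE 0.15) in 4V, the lowest values among the 10 genes in both ventricles, given with no test because the study picked the gene for this change.

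Steap2, which reduces both iron and copper (chr5:5664831-5683063, minus strand), was measured at 567 and 617 CPM in the vehicle LV pools and 288 and 252 CPM in the Cre-Tat LV pools. In 4V the values were 609.5 and 626 CPM with vehicle and 251 and 299 CPM with Cre-Tat. The groups did not overlap in either ventricle, and the 2 ventricles gave nearly equal differences. Steap2 fell by 1.13 on the log2 scale in LV (SE 0.16, edgeR adjusted p = 0.00153) and fell by 1.16 in 4V (SE 0.15, edgeR adjusted p = 4.46e-05). Steap1 and Steap2 lie close together on the same strand. Per length of transcript, the level of Steap1 in 4V was 119.7% and 96.0% of that of Steap2 in the vehicle pools and 73.8% and 55.5% in the Cre-Tat pools, without overlap. In LV it was 155% and 129% in the vehicle pools and 75.6% and 135% in the Cre-Tat pools, which overlapped. These percentages hold for the transcript counted for each gene and can differ with another.

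Slc31a1 encodes CTR1, the high-affinity copper importer (chr4:62360727-62391769, plus strand). It was at 449.6 and 445 CPM in the vehicle LV pools, at 270.0 and 256.2 CPM in the Cre-Tat LV pools, at 514 and 476 CPM in the vehicle 4V pools and at 252 and 249 CPM in the Cre-Tat 4V pools. The lowest vehicle pool was well above the highest Cre-Tat pool. The log2 fold change was -0.76 (SE 0.16) in LV and -0.98 (SE 0.14) in 4V, given with no test for the reason above. Slc31a2, a related protein that affects copper handling within the cell (chr4:62286449-62298411, plus strand), was at 40.8 and 38.6 CPM in the vehicle LV pools and 25.9 and 29.7 CPM in the Cre-Tat LV pools. In 4V it was at 40.5 and 30.6 CPM with vehicle and 26.5 and 24.2 CPM with Cre-Tat. Its groups did not overlap either, but the log2 fold changes of -0.51 (SE 0.16, edgeR adjusted p = 0.119) in LV and -0.49 (SE 0.16, edgeR adjusted p = 0.0614) in 4V did not pass the threshold. Slc31a2 passed in LV without Cre-Tat pool B (edgeR adjusted p = 0.0494) and in 4V without Cre-Tat pool A (0.0230) or vehicle pool B (0.0171).

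Of the exporters, Atp7a (chrX:106027276-106124917, plus strand), the pump that is mutated in Menkes disease, was at 262 and 273 CPM in the vehicle LV pools and 204 and 168 CPM in the Cre-Tat LV pools. In 4V it was at 236 and 238 CPM with vehicle and 160.2 and 179.5 CPM with Cre-Tat. The pools of the groups did not overlap in either ventricle. The log2 fold change was -0.52 in LV (SE 0.16, edgeR adjusted p = 0.12), which passed only without Cre-Tat LV pool A (0.0286) among the fits that left out 1 pool, and Atp7a fell by 0.48 in 4V (SE 0.13, edgeR adjusted p = 0.0281). The 4V call was lost without Cre-Tat 4V pool A (edgeR adjusted p = 0.109), without vehicle 4V pool A (0.213), without vehicle 4V pool B (0.164), with scaling by total counts (0.175) and in a fit over all conditional pools (0.0602). Over its 12 alternatives the adjusted p, from edgeR or DESeq2, ran from 4.77e-06 to 0.213, and 7 passed. Atp7b, the pump that is mutated in Wilson disease (chr8:21992785-22060305, minus strand), was measured at 2.65 to 7.81 CPM in all 14 pools. Its log2 fold change was -0.50 (SE 0.28, edgeR adjusted p = 0.489) in LV and 0.22 (SE 0.25, edgeR adjusted p = 0.68) in 4V, with 95% intervals of -1.1001 to 0.11 and -0.31 to 0.76.

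Cp encodes ceruloplasmin, a ferroxidase that carries most of the copper of plasma (chr3:19957054-20007609, plus strand). It was at 158 and 173 CPM in the vehicle LV pools, at 275 and 231 CPM in the Cre-Tat LV pools, at 118 and 157 CPM in the vehicle 4V pools and at 331 and 343 CPM in the Cre-Tat 4V pools. Both Cre-Tat groups lay above both vehicle groups. Cp rose in 4V with a log2 fold change of 1.30 (SE 0.15, edgeR adjusted p = 1.81e-05). In LV the log2 fold change of 0.61 (SE 0.16, edgeR adjusted p = 0.061) did not pass the threshold, but passed without Cre-Tat LV pool B (edgeR adjusted p = 0.00608) and in 6 of its 13 alternatives in all. The difference between the ventricles was itself tested, and at 0.68 on the log2 scale (95% interval 0.20 to 1.17) it did not pass after adjustment (edgeR adjusted p = 1.00).

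Mt1 and Mt2 gave the highest positive log2 fold changes of the 10 genes. Mt1 (chr8:94179082-94180327, plus strand) was at 27.9 and 36.7 CPM in the vehicle LV pools and at 67.4 and 109.9 CPM in the Cre-Tat LV pools. In 4V it was at 34.8 and 32.4 CPM with vehicle and at 112 and 105 CPM with Cre-Tat. All 4 Cre-Tat pools lay above all vehicle pools, with a wider spread in LV than in 4V. Mt1 rose by 1.46 on the log2 scale in LV (SE 0.22, edgeR adjusted p = 0.00216) and by 1.69 in 4V (SE 0.14, edgeR adjusted p = 2.42e-07), which are 2.75-fold and 3.23-fold differences.

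Mt2, which lies shortly before Mt1 on the same strand (chr8:94172664-94173568), was at 3.96 and 7.76 CPM in the vehicle LV pools and at 18.4 and 30.6 CPM in the Cre-Tat LV pools. In 4V it was at 8.45 and 7.20 CPM with vehicle and at 37.8 and 47.8 CPM with Cre-Tat. Again no Cre-Tat pool overlapped a vehicle pool. Mt2 rose by 2.07 on the log2 scale in LV (SE 0.29, edgeR adjusted p = 0.00108) and by 2.45 in 4V (SE 0.18, edgeR adjusted p = 6.19e-08), which are 4.19-fold and 5.46-fold differences. The raw counts behind these values were 83 and 156 in the vehicle LV pools, 459 and 667 in the Cre-Tat LV pools, 114 and 78 in the vehicle 4V pools and 697 and 950 in the Cre-Tat 4V pools. Exons of Mt2 share 355 bases with Gm45774, a gene annotated on the opposite strand, and 45.5% of the 50-base windows of the Mt2 transcript occur in that gene too. The strand setting of the counting is not given in the sources used here, so reads of the 2 genes may not be told apart. No 50-base window of the other genes occurs in another gene, apart from 0.179% of those of Steap2.

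Mt3, which lies before Mt2 in the same cluster (chr8:94152607-94154146, plus strand), was at 29.4 and 25.2 CPM in the vehicle LV pools and at 22.4 and 33.0 CPM in the Cre-Tat LV pools. In 4V it was at 28.4 and 20.7 CPM with vehicle and at 27.3 and 21.1 CPM with Cre-Tat. The groups overlapped in both ventricles. The log2 fold change was 0.02 in LV (95% interval -0.40 to 0.44, edgeR adjusted p = 0.987) and -0.02 in 4V (95% interval -0.41 to 0.36, edgeR adjusted p = 0.96). Mt4, the remaining gene of the cluster, had 0 counts in all 14 pools. Of the summed CPM of Mt1, Mt2 and Mt3, the share of Mt3 was 34.3% to 48.0% in the vehicle pools and 12.1% to 20.7% in the Cre-Tat pools. The level of Mt2 relative to Mt1, per length, was 15.2% and 22.7% in the vehicle LV pools, 29.4% and 29.9% in the Cre-Tat LV pools, 26.1% and 23.9% in the vehicle 4V pools and 36.4% and 49.0% in the Cre-Tat 4V pools. In each ventricle, both Cre-Tat pools lay above both vehicle pools.

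**Figure D2:**
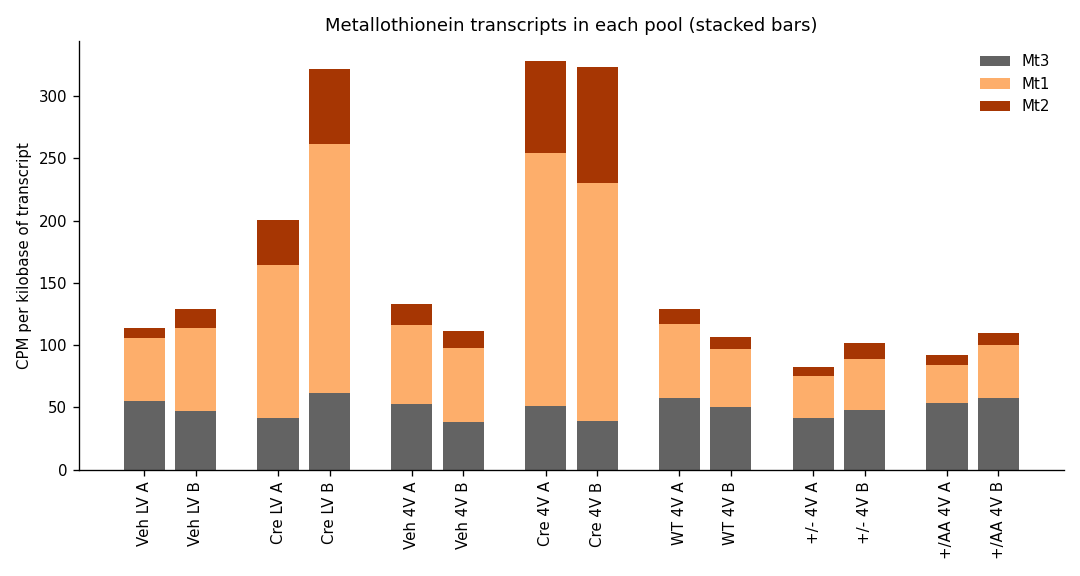
Stacked bars of the levels of Mt3, Mt1 and Mt2 in each of the 14 pools (horizontal axis), in CPM per kilobase of transcript (vertical axis, from 0). The grey Mt3 segment is of similar height throughout, and the Mt1 and Mt2 segments are taller in the 4 Cre-Tat pools than in any other pool.

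The promoters of the 3 metallothionein genes are printed to show the sequence that lies before genes that moved together (Mt1 and Mt2) and before one that did not pass the threshold (Mt3). Each sequence is the 250 bases before the RefSeq gene start on GRCm38.p6, plus strand, with capitals for matches to the core of the metal response element, searched as TGCACNC and TGCGCNC on both strands. The regions are chr8:94178839-94179088 for Mt1, chr8:94172368-94172617 for Mt2 and chr8:94152357-94152606 for Mt3.
Mt1: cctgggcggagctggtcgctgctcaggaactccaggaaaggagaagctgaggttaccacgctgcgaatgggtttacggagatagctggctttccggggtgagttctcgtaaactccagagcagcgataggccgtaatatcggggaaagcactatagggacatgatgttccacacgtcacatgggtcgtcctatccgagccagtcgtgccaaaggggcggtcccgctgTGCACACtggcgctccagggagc
Mt2: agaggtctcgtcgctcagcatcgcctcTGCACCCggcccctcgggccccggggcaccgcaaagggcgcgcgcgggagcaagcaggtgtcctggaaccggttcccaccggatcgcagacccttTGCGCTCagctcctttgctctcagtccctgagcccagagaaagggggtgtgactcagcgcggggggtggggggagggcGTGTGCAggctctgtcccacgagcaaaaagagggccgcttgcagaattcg
Mt3: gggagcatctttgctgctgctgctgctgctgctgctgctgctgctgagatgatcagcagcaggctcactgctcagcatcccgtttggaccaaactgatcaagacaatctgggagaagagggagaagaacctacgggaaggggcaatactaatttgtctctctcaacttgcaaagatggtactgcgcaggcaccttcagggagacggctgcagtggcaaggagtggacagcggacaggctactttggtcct

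The Mt2 window held 3 cores, the Mt1 window 1 and the Mt3 window 0, and 21.4% of the 32851 RefSeq windows of this length held at least 1. Over windows of 300 bases, which add the 50 bases after the start, the counts were 4 for Mt2, 3 for Mt1 and 1 for Mt3, beside 25.7% of windows with at least 1 and 0.517% with 4 or more. The number for Mt1 rose because its annotated start lies before 2 of the cores, so that the window before the start misses them. Among the other genes, the 250-base windows of Atp7a held 2 cores and those of Steap1, Slc31a2 and Atp7b 1 each. The windows of Slc31a1 and Cp held none, and 1 of 3 Steap2 windows held 1. TAATCC, the letters that OTX2 and related homeoproteins are known to bind, occurred in 6.25% of all windows and, among the 10 genes, in 1 Steap2 window, with 2 matches. These are matches of letters, not sites shown to be bound. The Steap2 windows lie between chr5:5694090 and chr5:5694818. They are not directly before the Steap2 transcript counted here, whose start is at chr5:5683063.

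In the constitutive model, none of the 10 genes passed the threshold in the main fit, which has no block for the replicate number. Calls with that block differ and are given with the dependence on processing. In Otx2 (+/-) against wildtype 4V ChP, 0 of 10 were called by edgeR (also 0 by DESeq2), beside 3.53% of 14561 genes. An unadjusted edgeR p under 0.05 was found for 6 of the 10, beside 2697 of the 14561 genes. In Otx2 (+/AA) against the same wildtype pools, 0 of 10 were called by either tool, beside 0.345% of 14482 genes. There 1 of 10 had an unadjusted edgeR p under 0.05, beside 1289 of the 14482 genes. Both comparisons use the same wildtype pools, so each is given by its own values. Between Otx2 (+/-) and wildtype, the pools of Steap1, Steap2, Slc31a1, Slc31a2, Atp7a, Cp, Mt1 and Mt3 did not overlap. None of these genes was called there, so pools can separate without a call. The share of all genes whose pools separate is not given here, so nothing is read from this list.

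Mt1 was at 32.5 and 25.5 CPM in the wildtype pools, at 18.8 and 22.3 CPM in the Otx2 (+/-) pools and at 16.7 and 23.3 CPM in the Otx2 (+/AA) pools. Both mutant groups lay below wildtype without overlap. The log2 fold change was -0.49 (SE 0.16, edgeR adjusted p = 0.15) in Otx2 (+/-) and -0.55 (SE 0.18, edgeR adjusted p = 0.299) in Otx2 (+/AA). Without wildtype pool B the adjusted p became 0.0256 and 0.042, with log2 fold changes of -0.66 and -0.71. Mt2, at 6.26 and 5.12 CPM in wildtype, was at 3.73 and 6.88 CPM in Otx2 (+/-), with overlapping pools (log2 fold change -0.10, edgeR adjusted p = 0.9), and at 4.17 and 5.06 CPM in Otx2 (+/AA) (log2 fold change -0.32, edgeR adjusted p = 0.804). Mt3 was at 31.0 and 26.9 CPM in wildtype, 22.1 and 25.7 CPM in Otx2 (+/-) and 28.6 and 30.9 CPM in Otx2 (+/AA), with log2 fold changes of -0.27 and 0.03.

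Steap2 was at 696 and 573 CPM in the wildtype pools and at 1032 and 711 CPM in the Otx2 (+/-) pools, where pool A stood apart. The log2 fold change of 0.46 (SE 0.19, edgeR adjusted p = 0.235) was of the opposite sign to that in the Cre-Tat pools. Without Otx2 (+/-) pool B it was 0.71 (edgeR adjusted p = 0.0148). Steap1 was at 135 and 124 CPM in wildtype and at 109 and 99.4 CPM in Otx2 (+/-) (log2 fold change -0.31, SE 0.12, edgeR adjusted p = 0.207). Slc31a1 was at 507 and 567 CPM in wildtype and at 442 and 445 CPM in Otx2 (+/-) (log2 fold change -0.27, SE 0.12, edgeR adjusted p = 0.273). For both genes the Otx2 (+/-) pools lay below the wildtype pools. Slc31a2 gave -0.33 (edgeR adjusted p = 0.215), from 32.6 and 33.2 CPM in wildtype to 27.6 and 24.9 CPM in Otx2 (+/-), and Cp gave 0.31 (edgeR adjusted p = 0.224), from 217 and 191 CPM in wildtype to 266 and 239.6 CPM in Otx2 (+/-).

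Atp7a was at 244 and 202 CPM in wildtype and at 188 and 142 CPM in Otx2 (+/-), a log2 fold change of -0.43 (SE 0.16, edgeR adjusted p = 0.2). It passed without Otx2 (+/-) pool A (log2 fold change -0.65, edgeR adjusted p = 0.0428). In the Otx2 (+/AA) pools it was at 154 and 204 CPM, which overlaps wildtype. Steap1 was at 119 CPM in both Otx2 (+/AA) pools, Slc31a1 at 471 and 462 CPM, Slc31a2 at 28.8 and 27.3 CPM and Cp at 219 and 208 CPM. Apart from Mt1, the log2 fold changes in Otx2 (+/AA) ran from -0.33 for Atp7a to 0.12 for Steap2, which was at 774 and 617 CPM. Between Otx2 (+/-) and Otx2 (+/AA), 0 of 10 genes passed in edgeR and in DESeq2, beside 2.70% of 14566 genes. An unadjusted edgeR p under 0.05 was found for 0 of 10, beside 2092 of the 14566 genes. The lowest edgeR adjusted p was 0.377 for Mt3.

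**Figure D3:**
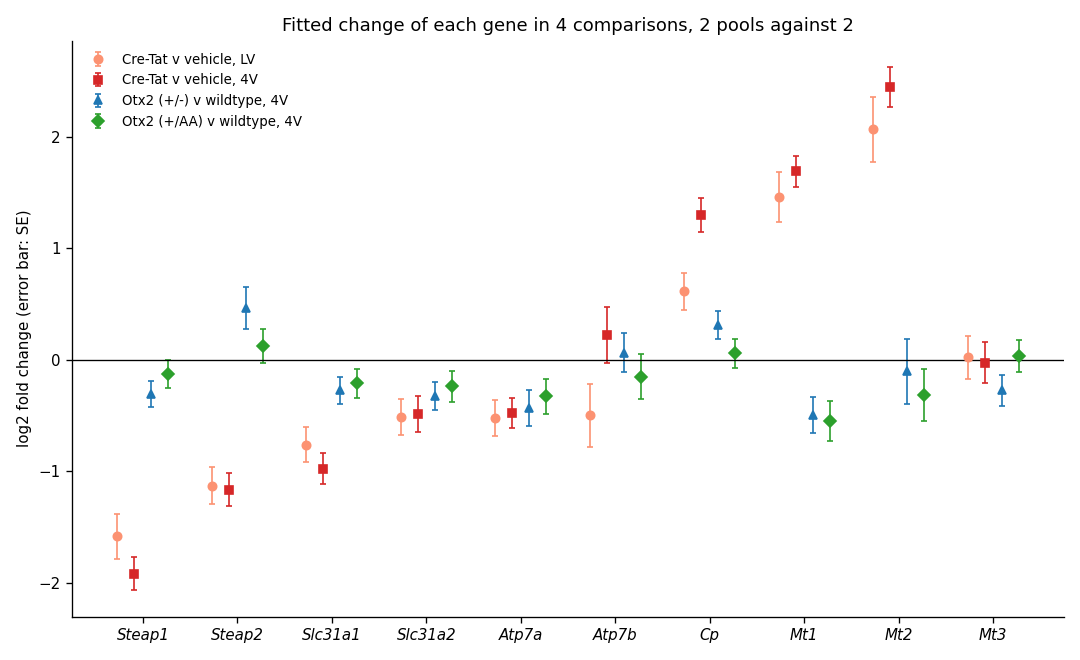
Log2 fold change (vertical axis, error bars SE) of each gene (horizontal axis) in 4 comparisons of 2 pools against 2 pools. The Cre-Tat comparisons in LV (orange circles) and 4V (red squares) run from -1.92 for Steap1 to 2.45 for Mt2, whereas Otx2 (+/-) (blue triangles) and Otx2 (+/AA) (green diamonds) stay between -0.55 and 0.46.

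The difference between the Cre-Tat effect and the Otx2 (+/-) effect in 4V was fitted as an interaction over 8 pools. Of the 8 genes that were tested it was called for 4, beside 1.61% of 15314 genes. This contrast contains the Cre-Tat values that were known when the set was formed. Nothing is therefore read from the share, and the calls are no independent test. The Cre-Tat effect was the higher by 2.17 on the log2 scale for Mt1 (SE 0.20, edgeR adjusted p = 0.000209), by 2.54 for Mt2 (SE 0.35, edgeR adjusted p = 0.00288) and by 0.97 for Cp (SE 0.21, edgeR adjusted p = 0.0324). For Steap2 the difference was -1.64 (SE 0.25, edgeR adjusted p = 0.00523), where the 2 effects had opposite signs. For Steap1, again as a description, it was -1.63 (SE 0.19), and for Slc31a1 -0.72 (SE 0.17). Slc31a2, Atp7a, Atp7b and Mt3 had differences between -0.18 and 0.24 that did not pass. The call for Cp was lost in 7 of its 15 alternatives, among them 6 that left out 1 pool, with adjusted p-values from 0.0543 without Cre-Tat 4V pool A to 0.159 without vehicle 4V pool A.

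Between the ventricles, the Cre-Tat effect in 4V minus that in LV was called by edgeR for 0 of the 10 genes, beside 0.00643% of 15552 genes, and by DESeq2 for 0 of 10. There 1 of 10 (Cp) had an unadjusted edgeR p under 0.05, beside 416 of the 15552 genes. The 95% intervals of the difference on the log2 scale were -0.38 to 0.83 for Mt1, -0.46 to 1.23 for Mt2 and -0.49 to 0.41 for Steap2. For Mt2 this leaves room for a difference of up to 1.23, so a like effect in LV and 4V is not shown. The main fits between the ventricles take the pools as independent, although LV and 4V tissue came from the same mice as the methods read. Among vehicle pools, LV against 4V was called for 0 of 10 genes by edgeR and by DESeq2, beside 7.49% of 14548 genes. There 1 of 10 had an unadjusted edgeR p under 0.05, beside 3316 of the 14548 genes. The largest value was that of Mt2 at -0.43 (SE 0.28, edgeR adjusted p = 0.394), which passed without vehicle LV pool B at -0.97 (edgeR adjusted p = 0.0216). Steap1 had 0.33 (SE 0.13, edgeR adjusted p = 0.153), with both LV pools above both 4V pools.

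Per length of transcript, the level of Slc31a1 was the highest of the 10 genes in the vehicle and in all constitutive groups, at 120.3 ± 0.828 CPM per kilobase (SD, n = 2 pools) in vehicle LV, 133 ± 7.32 in vehicle 4V, 144 ± 11.4 in wildtype, 119 ± 0.464 in Otx2 (+/-) and 126 ± 1.70 in Otx2 (+/AA). In each of these groups both pools of Slc31a1 lay above both pools of the next gene. These levels and their order are for the transcript counted for each gene and can differ with another. Over all libraries, Steap2 had 148696 counts on 10089 bases in the transcript used and 90103 counts on 3657 bases in another. In vehicle 4V, Steap1 (66.0 ± 9.02), Steap2 (61.2 ± 1.15) and Mt1 (61.2 ± 3.12) followed and overlapped one another, then Atp7a (48.4 ± 0.177) and Mt3 (45.8 ± 10.3), which also overlapped, then Cp (30.1 ± 6.07), Slc31a2 (19.5 ± 3.84), Mt2 (15.3 ± 1.73) and Atp7b (0.759 ± 0.171). In Cre-Tat 4V the order by level was Mt1 (197 ± 8.77), Mt2 (83.8 ± 13.9), Cp (73.9 ± 1.81), Slc31a1 (67.5 ± 0.552), Mt3 (45.1 ± 8.23), Atp7a (34.7 ± 2.80), Steap2 (27.2 ± 3.39), Steap1 (17.4 ± 1.34), Slc31a2 (13.9 ± 0.916) and Atp7b (0.877 ± 0.107). Only Mt2 and Cp overlapped there among neighbours in the order. Atp7b was the lowest in all 7 groups.

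**Figure D4:**
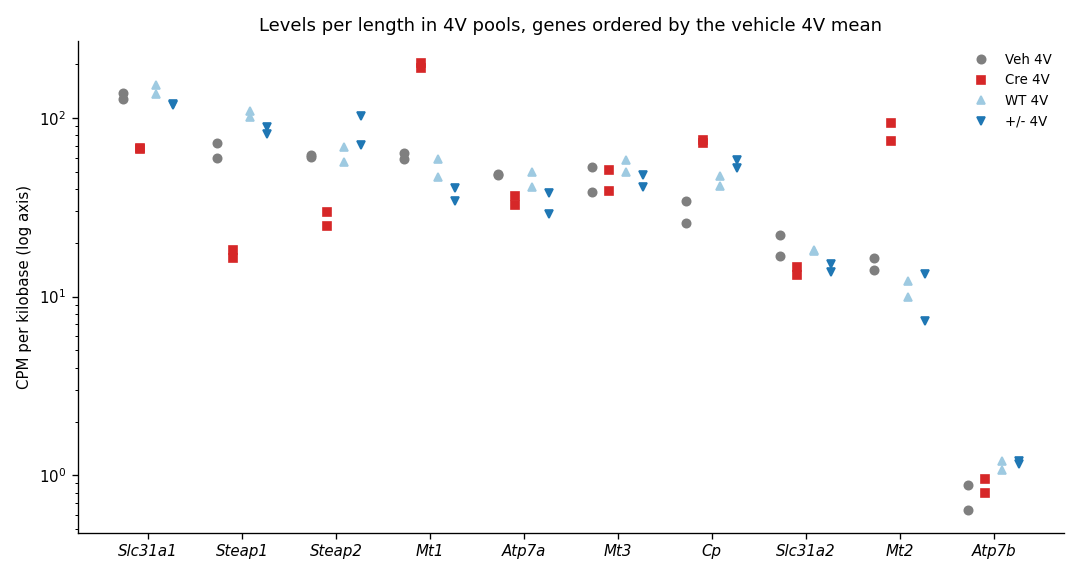
Level of each gene in CPM per kilobase (vertical axis, log scale) in the 4V pools, with 1 symbol per pool and the genes (horizontal axis) ordered by their mean in the vehicle 4V group. Slc31a1 leads the vehicle, wildtype and Otx2 (+/-) pools, and Mt1 and Mt2 lead the Cre-Tat pools.

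Other genes of metal handling were taken from lists of chaperones, copper enzymes, iron and divalent metal partners, zinc and metal-responsive genes, copper-binding surface proteins, acute phase genes and glucocorticoid-inducible genes. The lists were chosen with earlier results of these data known, so nothing is read from how many genes of a list passed. Over all genes tested, 3.24% passed in LV and 10.7% in 4V. None of the 11 copper chaperone and delivery genes passed the threshold in the Cre-Tat pools of either ventricle, Atox1, Ccs and Cox17 among them, and the median log2 fold change of that list was 0.13 in LV and -0.01 in 4V. Of 16 copper enzymes, 12 could be tested. In LV 0 passed, and in 4V Heph, a membrane ferroxidase, fell by 0.58 (SE 0.16, edgeR adjusted p = 0.0218) and Pam, which amidates peptides, fell by 0.49 (SE 0.13, edgeR adjusted p = 0.0219). Of 8 iron and divalent metal partners, Fth1, the ferritin heavy chain, rose by 0.88 in 4V (SE 0.14, edgeR adjusted p = 0.000357), and 0 passed in LV. Of 4 copper-binding surface proteins, Aplp1 fell by 0.80 in 4V (SE 0.14, edgeR adjusted p = 0.00119).

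Of 7 zinc and metal-responsive genes, Mtf1 and Slc30a1 among them, 6 were tested and 0 passed in either ventricle. Among 12 acute phase genes, Saa3 rose in LV, with 0 and 4 counts in the vehicle pools and 44 and 57 counts in the Cre-Tat pools (edgeR adjusted p = 0.00519), and none of the 6 tested passed in 4V. Among 9 glucocorticoid-inducible genes, Ddit4 (log2 fold change 1.08, SE 0.27, edgeR adjusted p = 0.0153) and Klf9 (0.59, SE 0.13, edgeR adjusted p = 0.00654) rose in 4V and 0 passed in LV. The list medians lay between -0.28 and 0.33 in LV and between -0.15 and 0.22 in 4V.

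In Otx2 (+/-) against wildtype, Atox1, the chaperone that delivers copper to ATP7A and ATP7B, fell by 0.82 (SE 0.18, edgeR adjusted p = 0.0446), Sod1, the copper-zinc superoxide dismutase, fell by 0.60 (SE 0.13, edgeR adjusted p = 0.0416), and Aplp1 fell by 0.99 (SE 0.12, edgeR adjusted p = 0.00272). Atox1 was at 28.4 and 25.0 CPM in wildtype, 12.7 and 17.6 CPM in Otx2 (+/-) and 28.5 and 31.5 CPM in Otx2 (+/AA). Only the Otx2 (+/-) pools were low. In Otx2 (+/AA), Cybrd1, an iron reductase, rose by 1.16 (SE 0.22, edgeR adjusted p = 0.0454) and Steap3, another reductase of the STEAP family, fell by 1.18 (SE 0.22, edgeR adjusted p = 0.046). Between vehicle LV and 4V, 6 of the 12 copper enzymes tested passed, beside 7.49% of 14548 genes. Among them were Loxl2 (log2 fold change 1.31), Aoc3 (1.14), Sod3 (-0.95) and Heph (0.90), where positive values are higher in LV. In the same comparison Steap4 (0.62), Steap3 (0.53) and Fth1 (0.53) of the iron and divalent metal partners and the zinc transporter Slc39a10 (0.84) were higher in LV. Between Otx2 (+/-) and Otx2 (+/AA), Atox1 (-0.98) and Cybrd1 (-0.87) were lower and Steap3 (1.13), Loxl2 (0.69), Dusp1 (0.74) and Zbtb16 (3.01) were higher in Otx2 (+/-), each past the threshold.

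Markers of cell types moved with the groups. These lists too were chosen with earlier results of these data known. Over all genes tested, 2.21% were called higher and 1.03% lower in LV, and 5.70% higher and 4.99% lower in 4V. Of 9 ChP epithelial markers, all 9 fell in 4V and 4 fell in LV (Kcnj13, Kcne2, Aqp1 and Enpp2), and Ttr, the most abundant of them, was at 168181 and 138687 CPM in the vehicle 4V pools and at 73808 and 61103 CPM in the Cre-Tat 4V pools. Of 5 ependymal markers, Foxj1 and Dynlrb2 rose in both ventricles, and the summed level of the list was 136 to 148 CPM in vehicle LV, 213 to 268 CPM in Cre-Tat LV, 130.5 to 163 CPM in vehicle 4V and 266 to 278 CPM in Cre-Tat 4V. Foxj1 and Dynlrb2 serve motile cilia, and the defining ependymal markers Ccdc153 and Tmem212 were at no more than 3.0 CPM in all 14 pools. Of 6 macrophage markers, Aif1, Mrc1 and Csf1r rose in 4V and 0 passed in LV, with a summed level of 30.1 to 31.3 CPM in vehicle 4V, 45.5 to 57.7 CPM in Cre-Tat 4V, 43.4 to 47.2 CPM in vehicle LV and 63.2 to 65.0 CPM in Cre-Tat LV. Of 5 astrocyte markers, Aqp4 rose in both ventricles while Aldh1l1 fell in both, Slc1a2 rose in LV and Gfap rose in 4V. Among the other lists, Col1a2 rose and Pdgfra fell in both ventricles (7 fibroblast markers), Snap25 rose in LV and Syt1 fell in 4V (5 neuronal markers), Plvap rose in 4V (5 endothelial markers), and no mural or oligodendrocyte marker passed. In Otx2 (+/-) against wildtype, Prlr, Ttr and Folr1 fell among the 9 epithelial markers, with a summed level of 188835 to 199682 CPM in wildtype and 124937 to 132862 CPM in Otx2 (+/-), and Col1a2, Col3a1, Aqp4 and Mrc1 rose. The summed fibroblast level was 726 to 799 CPM in wildtype and 1004 to 1108 CPM in Otx2 (+/-). In Otx2 (+/AA), where the summed epithelial level was 154613 to 157841 CPM, no marker of these lists passed. The part of these cell types in the values of the copper and metallothionein genes was not tested.

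Over the 14 pools, after removal of the mean of each gene over the conditional LV pools, the conditional 4V pools and the constitutive pools, the gene whose log2 level ran most like that of Mt1 was Mt2 (Pearson r = 0.97 across pools, among 10172 genes compared). After Mt1, Mt2 was most like Foxj1 (r = 0.96). The closest gene was Tmem237 for Steap1 (r = 0.98), Fzd4 for Steap2 (0.97), Htr2c for Slc31a1 (0.98), Tusc3 for Slc31a2 (0.96), Lmbrd2 for Atp7a (0.94), Eif2ak4 for Atp7b (0.82), Abca13 for Cp (0.98) and Ndufa13 for Mt3 (0.96). These are descriptions over pools that share libraries and group differences, and they carry no test.

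In the Cre-Tat comparisons, the transcripts of each gene below gave the same direction. They can count the same reads (in total 61056 and 61042 counts for 2 of those of Cp), so they are not independent support. Where a gene had several transcripts above a mean of 1 CPM, their log2 ratios lay between -1.58 and -1.56 in LV for the 2 transcripts of Steap1, between -1.18 and -1.12 for the 9 of Steap2 and between 0.52 and 0.86 for the 16 of Cp. In 4V they lay between -1.92 and -1.85 for Steap1, between -1.16 and -1.12 for Steap2, between 1.15 and 1.48 for Cp and between -0.64 and -0.35 for the 4 of Atp7a.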

How the data were processed

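Total RNA of pooled ChP tissue was sequenced as strand-specific libraries with reads of 50 bases. The authors aligned reads to mm10 and deposited raw counts per transcript, 22 files in all, and the submitters' processing notes list bcl2fastq 1.8.4, Bowtie 0.12.9, SAMtools, HTSeq 0.5.3 and DESeq 1.8.3. The strand setting and annotation release are not given in the sources used here. The protocol in the labels names ribosomal RNA depletion whereas the methods name polyadenylated RNA.

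Of 95533 transcripts, 82807 were matched to GENCODE vM21 (89.5% of counts), and for each gene the transcript holding the highest summed count was used. The 2 technical runs of each conditional pool were summed after joining by library number. Pairs of runs so joined differed by no more than sampling noise (chi-square per degree of freedom 1.00 to 1.03), whereas all other pairs reached at least 3.86. Depth was 22750019 to 50088408 counts per pool.

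Counts were tested with edgeR 4.0.16 (R 4.3.3; filterByExpr, trimmed mean of M-values, quasi-likelihood F test, two-sided, Benjamini-Hochberg over all genes tested, threshold 0.05), and the standard error is the log2 fold change divided by the square root of F. An exact permutation test of 2 against 2 pools cannot go below p = 0.333 and was not used. The alternatives were DESeq2 1.42.0, other scalings and filters, the replicate number as a block, all groups in 1 fit, sums over transcripts, each pool left out in turn, and the files taken as attached to samples. The scripts were tested on simulated data. The 10 genes and all gene lists were chosen with earlier results of these data known. Named were the 10 genes, Otx2 and, per metal-handling list and comparison, up to 4 genes past the threshold by size of change, and genes of the marker lists, the ventricle markers and the genes of most similar pattern. Promoter windows came from RefSeq (GRCm38.p6). In the conditional model, the pools of 1 group came from separate sets of mice. For the constitutive model the number of mice per pool is not clear from the methods. Whether the duplicates there are separate tissue pools is not clear either. Summaries and plots were made with matplotlib 3.10.9, NumPy 2.4.6 and pandas 2.3.3 under Python 3.11.15.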

Additional observations from a re-analysis of the deposited data

Results flagged for a closer look

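For 4 of the 8 genes tested, the fitted difference between the Cre-Tat effect and the Otx2 (+/-) effect in 4V passed the threshold. On the log2 scale the difference was -1.64 for Steap2, 0.97 for Cp, 2.17 for Mt1 and 2.54 for Mt2. The call for Cp was lost with counts summed over transcripts (edgeR adjusted p = 0.0594). The contrast contains the Cre-Tat values that were known when the set was formed, so it is no independent test of these genes. Model, strain, injection, sequencing run and the sexes pooled coincide in it and cannot be told apart.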

How the results depend on the processing

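With libraries taken as attached to samples rather than joined by number, the pools mix conditions and most log2 fold changes reversed: in LV Steap1 0.32, Steap2 0.050, Slc31a2 0.013, Atp7a 0.26, Cp -0.12, Mt1 -0.68 and Mt2 -1.10, in 4V Steap1 0.81, Steap2 0.047, Slc31a1 0.079, Slc31a2 0.36, Atp7a 0.13, Atp7b -0.75, Cp -0.44, Mt1 -0.081, Mt2 -0.77 and Mt3 0.49, in vehicle LV against 4V Slc31a1 0.15, Atp7a -0.046 and Cp -0.19, in the ventricle interaction Steap1 0.49, Slc31a1 0.12, Atp7a -0.13, Atp7b -0.26, Cp -0.32 and Mt3 0.60, and in the model interaction Steap1 1.104, Slc31a1 0.34, Slc31a2 0.68, Atp7a 0.55, Atp7b -0.82, Cp -0.77 and Mt2 -0.67. The number of genes called was then 6705 in LV, 8741 in 4V, 4715 (6 of the 10 genes) between vehicle LV and 4V, 5246 (8 of the 10) in the ventricle interaction and 4681 in the model interaction. All other values here keep the joining by number. Scaling by total counts shifted the median over all genes, on the log2 scale, to 0.17 in LV, 0.15 in 4V, 0.11 in Otx2 (+/AA), -0.19 between vehicle LV and 4V and 0.12 in the model interaction, and reversed Slc31a2 (-0.033) and Atp7a (-0.021) between vehicle LV and 4V. Calls higher and lower were 331 and 155 in LV against 396 and 48 with total counts, 828 and 726 against 1315 and 426 in 4V, 25 and 25 against 29 and 10 in Otx2 (+/AA), 508 and 582 against 252 and 1220 between vehicle LV and 4V, 199 and 194 against 183 and 294 between Otx2 (+/-) and Otx2 (+/AA), and 120 and 127 against 166 and 93 in the model interaction. With DESeq2 the LV calls were 312 higher and 225 lower.

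With no filter, 872 genes were called in LV, 390 in Otx2 (+/AA), 1838 between vehicle LV and 4V, 31 in the ventricle interaction and 626 in the model interaction. DESeq2 called 122 genes in Otx2 (+/AA), 5 in the ventricle interaction and 378 in the model interaction. A mean count above 10 gave 0 in the ventricle interaction. All groups in 1 fit gave 18 in Otx2 (+/AA) and 715 between vehicle LV and 4V, and sums over transcripts gave 22 in Otx2 (+/AA), 248 between Otx2 (+/-) and Otx2 (+/AA) and 0 in the ventricle interaction.

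By the labels, pools share only a number, with 2 pairs per comparison. As the methods read, LV and 4V tissue also came from the same mice, but which pools share them is not stated. Deviations of same-numbered pools correlated at -0.155 in LV, 0.207 in 4V, 0.376 in Otx2 (+/-), 0.0875 in Otx2 (+/AA), 0.127 between Otx2 (+/-) and Otx2 (+/AA) and 0.108 between vehicle LV and 4V. With the replicate number as a block, 3117 genes were called in 4V, 2522 in Otx2 (+/-) with 6 of the 10 genes, 547 in Otx2 (+/AA) with 1 (Mt1), 2277 between vehicle LV and 4V with 1 (Steap1), and 2 in the ventricle interaction. Crossed numbers in LV, chosen after seeing the data, gave 995 genes and 8 of the 10.

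Leaving out 1 pool at a time gave 325 to 736 genes and 4 to 7 of the 10 in LV, 890 to 1666 and 6 to 7 in 4V, 402 to 880 and 0 to 1 in Otx2 (+/-), 35 to 374 and 0 to 1 in Otx2 (+/AA), 402 to 787 and 0 between Otx2 (+/-) and Otx2 (+/AA), 408 to 1969 and 0 to 1 between vehicle LV and 4V, 0 to 3 and 0 in the ventricle interaction, and 80 to 246 and 4 to 5 in the model interaction. Among values that were called or larger than their SE, it reversed Slc31a2 between vehicle LV and 4V (range -0.033, without vehicle 4V pool B, to 0.38) and Steap1 in the ventricle interaction (range -0.64 to 0.018, without Cre-Tat LV pool B). Values smaller than their SE also changed sign. Among them were Mt1 (-0.098 to 0.62), Mt2 (-0.18 to 0.79) and Steap2 (-0.17 to 0.068) in the ventricle interaction and Mt2 in Otx2 (+/-) (-0.60 to 0.27). These counts cover all 10 genes, and those that involve Cre-Tat include Steap1 and Slc31a1, for which no test is read. Of the 8 other genes, 3 to 5 passed in LV, 4 to 5 in 4V and 3 to 4 in the model interaction. Mt1, Mt2 and Steap2 kept their direction in every alternative of both Cre-Tat comparisons that kept the joining. These alternatives use the same pools and give no independent support. The causes of these changes were not tested. Depth limits what can be said of Atp7b and of Mt2 in the vehicle pools.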
